A study of Macaca mulatta with 12 samples.

Results

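Genes of DNA replication and mitosis were followed in the corpus luteum of rhesus macaques, the progesterone-secreting gland of the ovary after ovulation. A gene belonged to the set when its single symbol in the array annotation matched a fixed list of names: the CENP, MCM, ORC, NCAP, GINS, CDCA, BUB and AURK families, A, B and E cyclins, CDK1 and CDK2, CDC6, CDC7, CDC20, CDC25 and CDC45, clamp loader subunits, PLK1 and PLK4, and TOP2A, MKI67, TYMS, RRM2 and PCNA. That gave 73 of 14132 genes, each read from its brightest probe set. The name patterns also caught 6 genes whose role lies elsewhere or is unclear (AURKAIP1, CDC73, CDC20B, MCM3AP, CCNB1IP1 and CDCA7L). RRM2, PLK1, PLK4, BUB1, BUB1B, CDC20, CDC7, MCM6, MCM7, ORC6 and RFC4 had no probe set under their symbol and are not analysed here.

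The study profiled glands from females with normal menstrual cycles, with 4 biological replicates in each group. Late regressed glands were taken on days 14 to 16 after the LH surge from animals with less than 0.5 ng/ml progesterone in serum. Late functional glands came from the same days, with more than 1.5 ng/ml of the hormone in serum. Mid-late glands, from days 10 to 12, were the baseline of the study. The whole gland was frozen and extracted, so each array mixes luteal, vascular, stromal and immune cells, and fewer cells of a type cannot be told apart from less RNA per cell.

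Cells copy their DNA in S phase and divide it in mitosis. ORC and CDC6 load the MCM helicase on origins, CDC45 and GINS turn the helicase on, and the PCNA clamp, placed by RFC, holds the polymerase on the template. B cyclins, condensins, Aurora kinases and kinetochore genes act later, towards division, and MKI67 and TOP2A are common markers of dividing cells. In the corpus luteum, dividing cells are best known from the early gland, many of them endothelial. The roles given below are those described in human cells and model organisms.

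Values are log2 array signals. A difference is a difference of group means on that scale, with the SE from limma, and a gene was called at an adjusted p below 0.05 (Benjamini-Hochberg over 52707 probe sets). Signals of different genes come from different probes and are not set against each other. Of the 73 genes, 49 had a mean above 4.644, the 95th percentile of 674 mostly dim probe sets with the prefix NC, and 24 lay at or below it.

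Some arrays stood apart. Late regressed arrays 2 and 3 lay at 93.2 and 81.6 along principal component 1 (40.8% of the variance), and the other 10 arrays lay between -43.0 and 12.6. Along component 2 (15.3%), late functional array 4 at 39.8 and late regressed array 4 at 34.6 lay highest. Late functional array 4 correlated with its own group at 0.986 on average, against 0.992 for the other late functional arrays. The 3′ to 5′ difference of the control genes, a sign of RNA quality, was 2.52 on late regressed array 2 and between 0.46 and 0.70 on the others. The mean of the NC probe sets ran from 3.48 to 3.58 in late regressed, 3.53 to 3.61 in late functional and 3.65 to 3.75 in mid-late arrays, so both late groups lay wholly below mid-late.

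Late regressed against mid-late glands sets the endpoint of functional regression against the baseline. Of the 73 genes, 16 fell, 2 rose and 55 did not pass (limma). Over all 14132 genes 5.51% were called lower and 7.6% higher. All 4 late regressed arrays lay below all 4 mid-late arrays for 23 of the 73 genes, against 9.96% of all genes, and for 13 of these the fold was at least 1.5, against 2.18%. The arrays lay wholly higher for MCM9 and BUB3, against 10.8% of all genes, and 0 of the 73 did so by 1.5-fold or more, against 4.67%. The median difference was -0.22 for the 73 genes and -0.02 for all genes. Among genes above the NC limit these medians were -0.30 and 0.06. limma's F test over the 3 groups called 8 of the 73 genes (AURKB, CDCA2, CDCA3, CENPF, CENPJ, MCM9, MKI67 and TOP2A), against 6.65% of all genes.

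**Figure D1:**
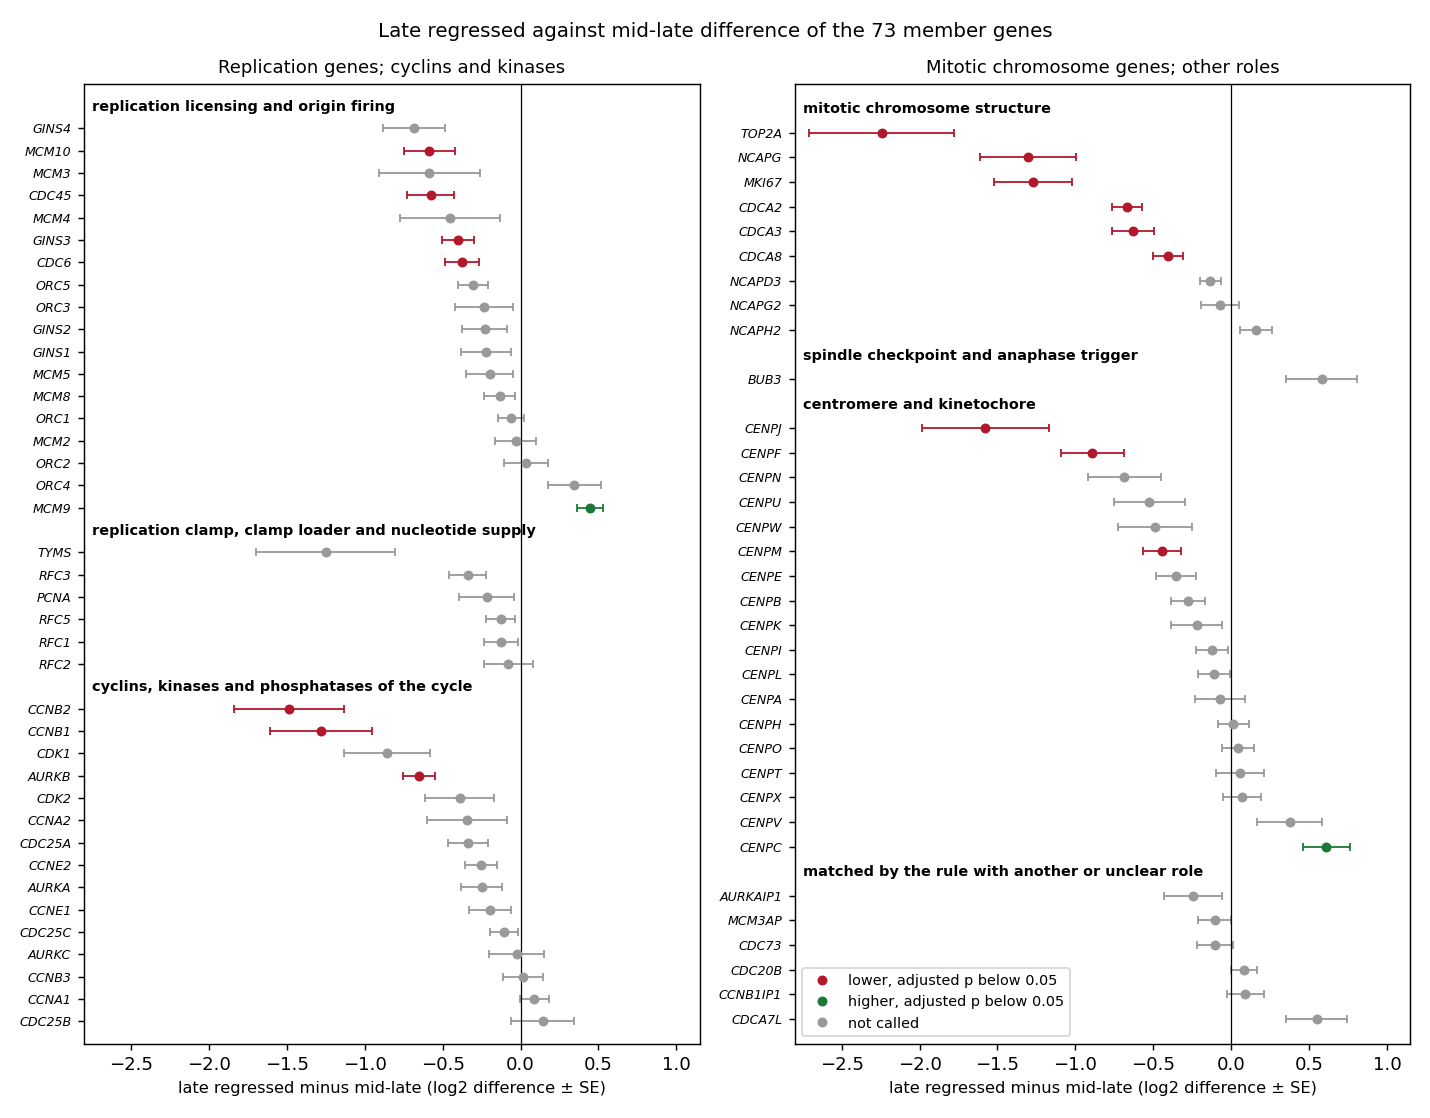
Log2 difference, late regressed minus mid-late, for the 73 genes by role, with the SE of limma's fit as the bar. Called genes are red (lower) or green (higher) and the rest grey. TOP2A lies furthest down at -2.24, and CENPC at 0.61 and MCM9 at 0.45 are the called genes above 0.

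The genes grouped under mitotic chromosome structure fell in 6 of 9 cases (66.7%) and rose in 0, against 5.51% and 7.6% of all genes. The group takes in CDCA3 and CDCA8, whose mitotic roles, given below, are not structural. TOP2A encodes the topoisomerase that untangles sister chromatids. It read 6.70, 4.34, 5.92 and 5.13 on late regressed arrays 1 to 4, 6.89, 6.93, 6.11 and 5.25 on late functional arrays, and 7.73, 7.81, 7.77 and 7.74 on mid-late arrays. Every array of both late groups lay below the narrow mid-late range, and the late groups overlapped each other. TOP2A was 4.73-fold lower in late regressed glands (-2.24, SE 0.46, adjusted p = 0.0171). A dimmer probe set of TOP2A was also called lower (-1.14, adjusted p = 0.0186).

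MKI67, which coats mitotic chromosomes and marks cells in cycle, read 5.01, 4.61, 5.15 and 4.52 on late regressed arrays, 5.56, 5.80, 5.60 and 4.54 on late functional arrays, and 5.92, 5.87, 6.30 and 6.29 on mid-late arrays. Late functional arrays 1 to 3 lay between the other groups, and array 4 fell within the late regressed range. MKI67 fell 2.41-fold (-1.27, SE 0.25, adjusted p = 0.0147) in late regressed glands; its other probe sets, both below the NC limit, were not called. NCAPG, a condensin I subunit, read 4.58, 4.51, 4.56 and 3.77 in late regressed glands, 5.09, 5.72, 4.86 and 4.00 in late functional glands, and 5.38, 5.84, 5.51 and 5.92 in mid-late glands, and was 2.47-fold lower in late regressed than in mid-late glands (adjusted p = 0.0264).

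CDCA2, which brings phosphatase PP1 to chromosomes at the end of mitosis, read 3.78, 3.85, 3.66 and 3.64 on late regressed arrays, 3.92, 3.86, 3.79 and 3.59 on late functional arrays, and 4.51, 4.54, 4.31 and 4.26 on mid-late arrays. Both late groups lay wholly below mid-late, and close to each other, although the signal was under the NC limit in all 3 groups. CDCA3, an adaptor for mitotic entry, averaged 4.93 ± 0.15 in late regressed, 5.20 ± 0.26 in late functional and 5.56 ± 0.18 in mid-late glands (SD, n = 4 each). CDCA8, or borealin, a partner of Aurora B, averaged 5.39 ± 0.06, 5.62 ± 0.17 and 5.80 ± 0.14 in the same order of groups. In late regressed against mid-late glands CDCA2 fell by 0.67 (adjusted p = 0.00677), CDCA3 fell by 0.63 (adjusted p = 0.0189) and CDCA8 fell by 0.41 (adjusted p = 0.0269). The members not called were the condensin II subunits NCAPD3 (-0.13), NCAPG2 (-0.07) and NCAPH2 (0.16).

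**Figure D2:**
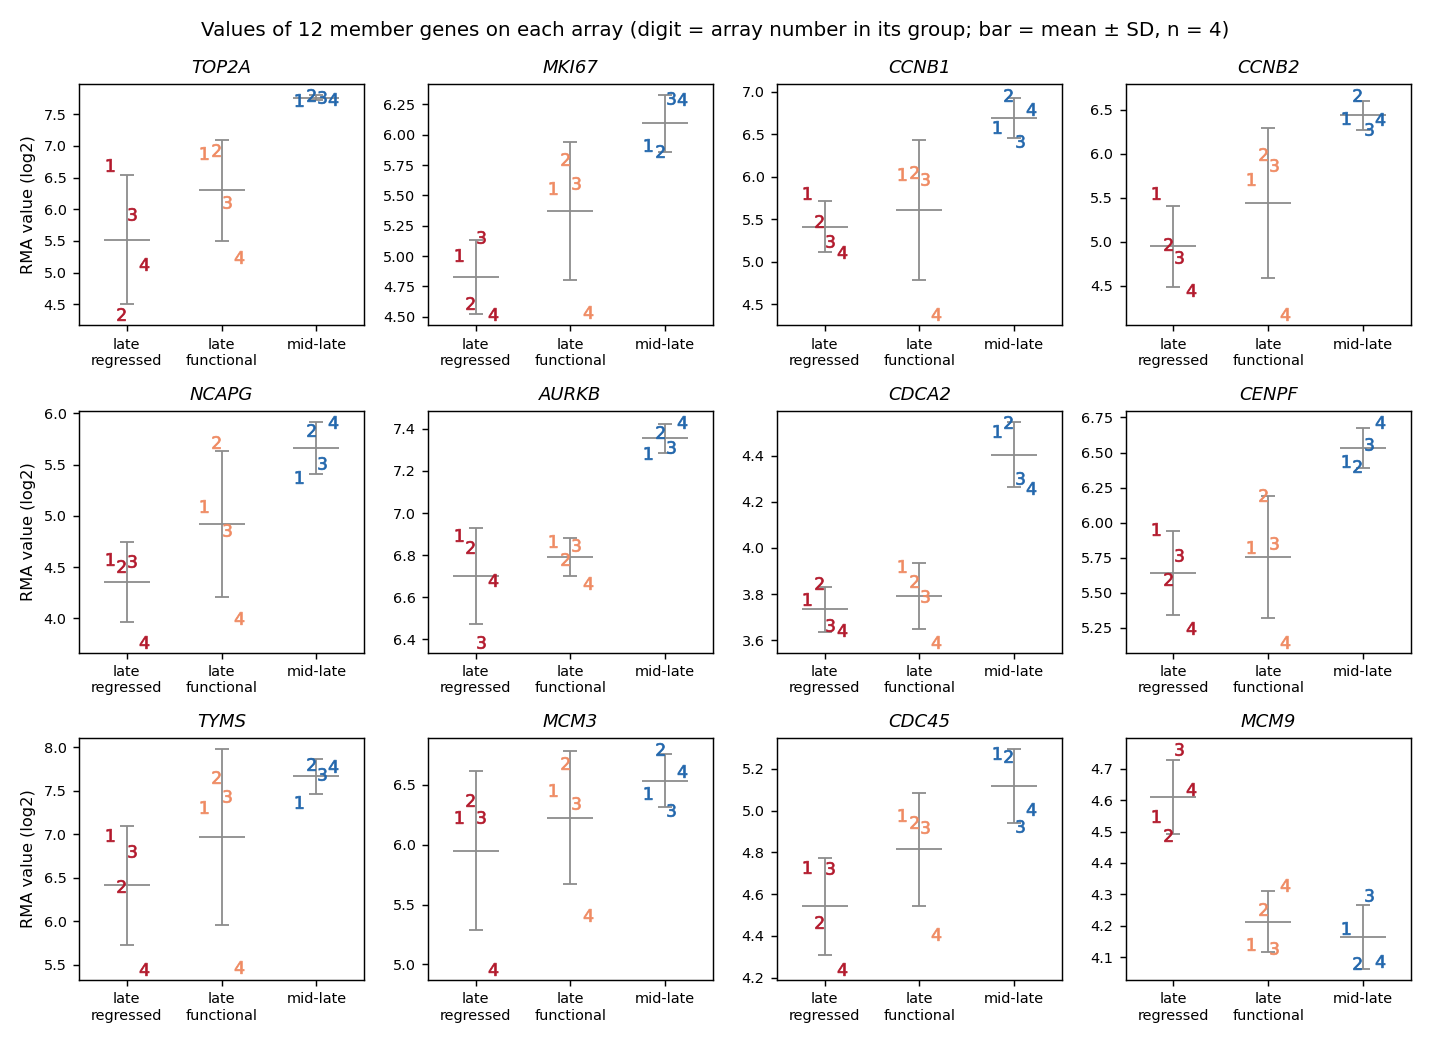
Log2 signal of selected genes on every array, late regressed, late functional and mid-late from left to right, with digits for the array numbers and bars for the mean and SD (n = 4). TOP2A, MKI67, CCNB1 and AURKB lie lower on all late regressed arrays than on any mid-late array, and late functional array 4 lies below the rest of its group for CCNB1 and TYMS.

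Among cyclins, kinases and phosphatases 3 of 15 fell (20%) and 0 rose, against 5.51% and 7.6% of all genes. CCNB1 and CCNB2 encode the B cyclins that drive entry into mitosis with CDK1. CCNB1 read 5.80, 5.47, 5.24 and 5.12 in late regressed glands, 6.03, 6.06, 5.97 and 4.38 in late functional glands, and 6.58, 6.97, 6.42 and 6.80 in mid-late glands. CCNB2 read 5.56, 4.97, 4.83 and 4.45 in late regressed glands, 5.72, 6.0, 5.87 and 4.17 in late functional glands, and 6.41, 6.67, 6.28 and 6.40 in mid-late glands. In both genes every late array lay below every mid-late array, and late functional array 4 was the lowest of all 12. CCNB1 was 2.43-fold lower (-1.28, SE 0.33, adjusted p = 0.034) and CCNB2 2.8-fold lower (-1.49, SE 0.35, adjusted p = 0.027) in late regressed than in mid-late glands.

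AURKB, the Aurora kinase of the chromosomal passenger complex, read 6.90, 6.84, 6.39 and 6.68 in late regressed glands, 6.87, 6.78, 6.85 and 6.67 in late functional glands, and 7.28, 7.39, 7.31 and 7.43 in mid-late glands. The late functional arrays lay within the late regressed range, and both groups lay wholly under mid-late. It fell 1.57-fold in late regressed glands (-0.65, SE 0.10, adjusted p = 0.00839). The other AURKB probe set, below the NC limit, was not called by limma (-0.17, adjusted p = 0.386). CDK1, the kinase partner of the B cyclins, read 5.48, 5.87, 5.82 and 4.94 in late regressed glands, 5.79, 6.19, 5.87 and 4.78 in late functional glands, and 6.25, 6.46, 6.33 and 6.49 in mid-late glands. No late array reached the mid-late range, yet the CDK1 difference of -0.86 did not pass (adjusted p = 0.0659). The other 11 members of this group were not called. AURKA stood at -0.25, CCNA2 at -0.35, CDK2 at -0.39 and CDC25B at 0.14. A dimmer AURKA probe set, under the NC limit, was called lower (-0.42, adjusted p = 0.044), and the remaining one was not.

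In the centromere and kinetochore group CENPF, CENPM and CENPJ fell, CENPC rose, and 14 of 18 were not called. These are 16.7% lower and 5.56% higher, against 5.51% and 7.6% of all genes. CENPF, a kinetochore protein made late in the cycle, averaged 5.64 ± 0.30 in late regressed, 5.75 ± 0.44 in late functional and 6.53 ± 0.14 in mid-late glands, and fell 1.85-fold in late regressed glands (adjusted p = 0.0232). The other CENPF probe set, below the NC limit, was not called by limma (-0.43, adjusted p = 0.0626). CENPM, a subunit of the constitutive centromere network, averaged 6.06 ± 0.21, 6.40 ± 0.20 and 6.51 ± 0.12 in those groups and fell by 0.44 (adjusted p = 0.0439). CENPC, which ties CENPA chromatin to the kinetochore, read 5.22, 5.70, 5.34 and 4.86 in late regressed glands, 4.61, 4.92, 4.74 and 4.77 in late functional glands, and 4.52, 4.58, 4.87 and 4.70 in mid-late glands. Its late regressed arrays 1 to 3 were higher than all others, and array 4 lay within the mid-late range. CENPC rose by 0.61 (SE 0.15, adjusted p = 0.0312). CENPN, a reader of CENPA nucleosomes, had non-overlapping arrays and a difference of -0.69 that did not pass (adjusted p = 0.078). A dimmer CENPN probe set, under the NC limit, was called lower (-0.58, adjusted p = 0.0383), and the remaining one was not. CENPB, which binds centromeric repeats, stood at -0.28 (adjusted p = 0.118), and CENPA itself stood at -0.07, at a signal below the NC limit.

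CENPJ is a centriole gene despite its name and showed another pattern. It read 7.19, 4.94, 4.77 and 6.0 on late regressed arrays 1 to 4, 7.46, 7.47, 7.41 and 7.41 on late functional arrays, and 7.15, 7.15, 7.54 and 7.38 on mid-late arrays. Late regressed array 1 lay among the mid-late arrays, and arrays 2 and 3 were lowest. The difference from mid-late was -1.58 (SE 0.41, adjusted p = 0.0354), and -0.71 (adjusted p = 0.154) without late regressed arrays 2 and 3. The steroidogenic luteal markers had the same array order, with a mean against mid-late of -0.50, -1.81, -1.94 and -0.88 on late regressed arrays 1 to 4. Their part in the CENPJ result was not tested. The other probe sets of CENPJ, both under the NC limit, were not called.

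In replication licensing and origin firing 4 of 18 genes fell (22.2%) and 1 rose (5.56%), against 5.51% and 7.6% of all genes. CDC45, a part of the active helicase, averaged 4.54 ± 0.23 in late regressed, 4.81 ± 0.27 in late functional and 5.12 ± 0.18 in mid-late glands and fell by 0.58 (adjusted p = 0.0367). MCM10, which helps the helicase start, averaged 4.49 ± 0.13, 4.79 ± 0.42 and 5.08 ± 0.06 in those groups and fell by 0.58 (adjusted p = 0.0464). GINS3, a helicase cofactor, fell by 0.40 (adjusted p = 0.0352), and the loader CDC6, under the NC limit, fell by 0.37 (adjusted p = 0.049). GINS4 had non-overlapping arrays and missed the threshold narrowly (-0.68, adjusted p = 0.0501), and GINS1 stood at -0.22 (adjusted p = 0.373). A dimmer GINS4 probe set, under the NC limit, was called lower (-0.54, adjusted p = 0.033), and its remaining probe sets were not.

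The helicase ring itself gave no call. MCM3 read 6.23, 6.38, 6.23 and 4.96 in late regressed glands, 6.46, 6.68, 6.35 and 5.42 in late functional glands, and 6.43, 6.80, 6.29 and 6.62 in mid-late glands. MCM4 read 6.48, 6.81, 7.0 and 5.40 in late regressed glands, 6.70, 6.85, 6.56 and 5.71 in late functional glands, and 6.78, 7.0, 6.94 and 6.79 in mid-late glands. In both genes array 4 of each late group lay clear below the rest of its group. The differences from mid-late were -0.58 for MCM3 (adjusted p = 0.249), -0.45 for MCM4 (adjusted p = 0.371), -0.20 for MCM5 and -0.03 for MCM2. MCM9 is a relative of the ring subunits that works with MCM8 in DNA repair. It read 4.55, 4.49, 4.76 and 4.64 in late regressed glands, 4.14, 4.25, 4.13 and 4.33 in late functional glands, and 4.19, 4.08, 4.30 and 4.09 in mid-late glands. All late regressed arrays lay above all others, and MCM9 rose by 0.45 (SE 0.08, adjusted p = 0.0119), at a mean signal under the NC limit.

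None of the 6 genes of the clamp, its loader and nucleotide supply was called, where 5.51% of all genes fell and 7.6% rose. TYMS, which makes the thymidylate used in DNA, read 6.99, 6.41, 6.80 and 5.45 in late regressed glands, 7.31, 7.66, 7.44 and 5.47 in late functional glands, and 7.37, 7.81, 7.69 and 7.79 in mid-late glands. The late regressed arrays lay below mid-late, and late functional array 4 stood alone, far below its group. The TYMS difference of -1.25 did not pass (SE 0.44, adjusted p = 0.0901). PCNA read 8.84, 9.11, 8.81 and 8.42 in late regressed glands, 9.05, 9.32, 9.15 and 8.47 in late functional glands, and 8.90, 9.14, 8.96 and 9.04 in mid-late glands, with a difference of -0.22 (SE 0.18, adjusted p = 0.441). Its groups overlapped, with array 4 the lowest of both late groups.

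BUB3, of the spindle checkpoint, went the other way without passing. It read 10.38, 11.06, 10.73 and 11.08 in late regressed glands, 10.07, 10.08, 9.98 and 11.03 in late functional glands, and 10.34, 9.99, 10.32 and 10.27 in mid-late glands. Late functional array 4 lay within the late regressed range, well over its group. The difference from mid-late was 0.58 (SE 0.23, adjusted p = 0.115). The 6 genes of other or unclear role gave no call by limma, where 5.51% of all genes fell and 7.6% rose. Their differences ran from -0.25 (AURKAIP1) to 0.55 (CDCA7L, adjusted p = 0.0883).

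Set side by side, 4 of 28 replication genes (14.3%) and 11 of 37 mitosis genes (29.7%) fell, and 1 rose in each, where 5.51% of all genes fell and 7.6% rose. The other 8 members belong to neither list. Above the NC limit the falls were 3 of 21 and 10 of 24, where 5.48% of all genes fell. The median difference was -0.23 for replication and -0.25 for mitosis genes, and above the NC limit -0.30 and -0.42. A difference between the lists was not tested. Among called genes, the mitosis falls except CDCA8 and CENPM came to more than 0.6, and the replication falls to less than 0.6. The replication genes TYMS (-1.25) and GINS4 (-0.68) differed by more but did not pass.

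**Figure D3:**
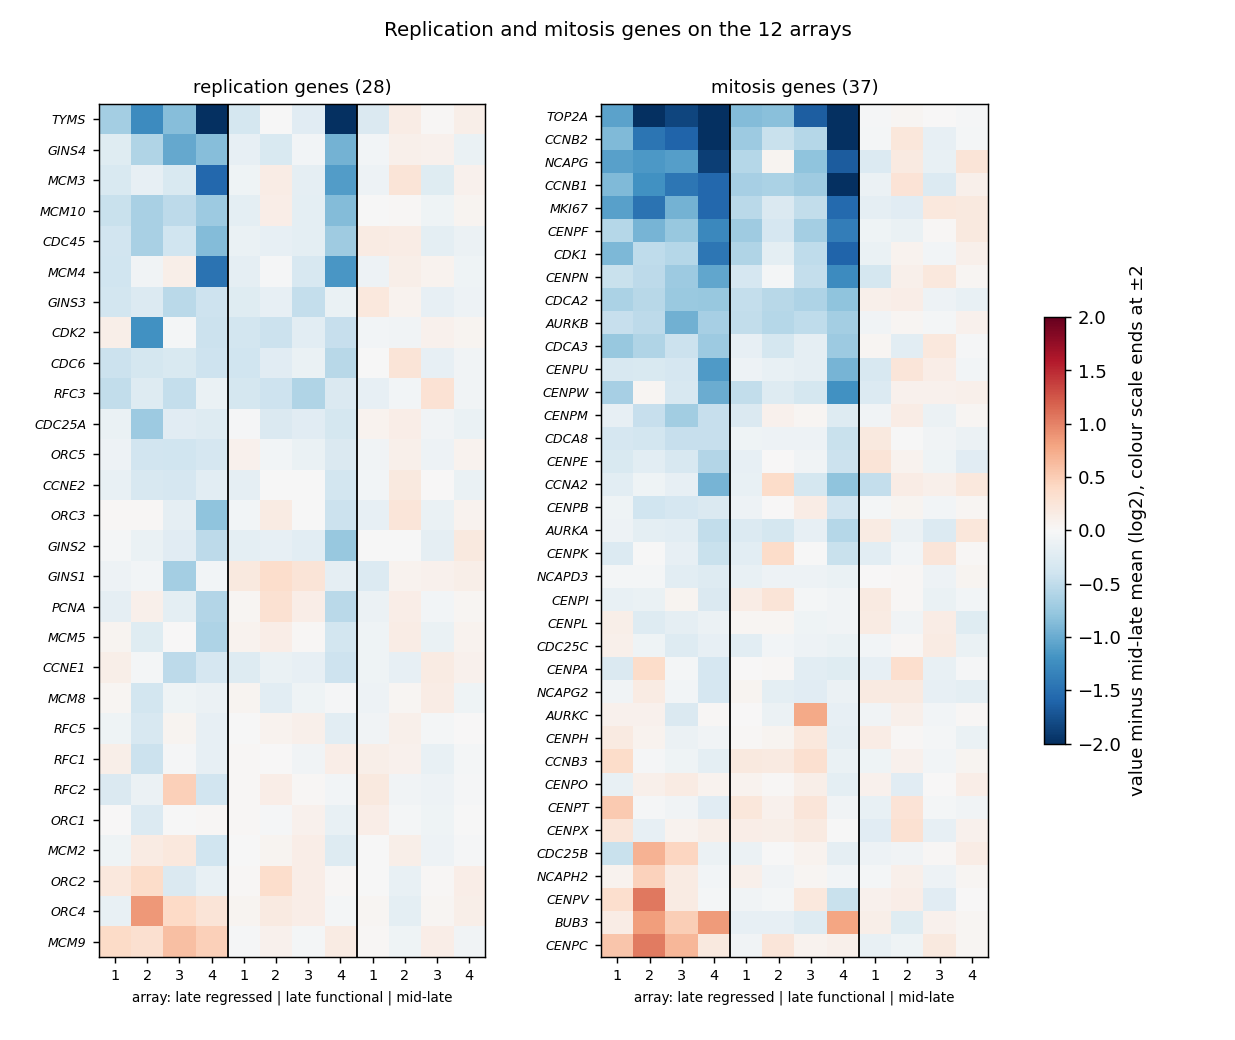
Values of the 28 replication genes and 37 mitosis genes on the 12 arrays, as log2 difference from the mid-late mean (blue lower, red higher, colour scale ending at 2 in either direction). Rows run from the lowest to the highest late regressed difference, and in the mitosis panel the column means of array 4 are -0.60 in late regressed and -0.64 in late functional glands, the lowest of their groups.

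The number of calls depended on the arrays used. Without mid-late array 1 or array 2 the 18 calls became 7, without mid-late array 4 or late regressed array 3 they became 8, and without mid-late array 3 they became 10. They became 20 without late regressed array 1 and 23 without late functional array 4. Over all probe sets the 5282 calls became 2167 and 2050 without mid-late arrays 1 and 2. Those calls became 7532 without late regressed array 1, 5118 without late functional array 4 and 975 without late regressed arrays 2 and 3. Without late regressed arrays 2 and 3 together AURKB, CDCA2 and CDCA3 were called. For the 16 falls the ratio of the difference without these arrays to that with them then had a median of 0.994, with CENPJ lowest at 0.448. AURKB, CDCA2, CDCA3, MCM9, MKI67 and TOP2A were called in all 12 fits that left out a single array. With the NC mean as a covariate 0 of the 73 genes and 0 of 52707 probe sets were called by limma (4071 probe sets had an unadjusted p below 0.05), with the members' median at -0.23. That mean separates both late groups from mid-late, so it and the stage of the gland cannot be told apart.

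Late regressed against late functional glands compares glands of the same days with different serum progesterone. None of the 73 genes was called by limma, and 6 lower (8.22%) and 3 higher (4.11%) had an unadjusted p below 0.05, against 7.78% and 8.34% of all genes. Over all genes 0% were called lower and 0.00708% higher. CENPJ was the member with all late regressed arrays lower than all late functional ones (-1.71, SE 0.41, adjusted p = 0.187), against 3.28% of all genes and 1.22% with at least a 1.5-fold difference. MCM9 was the member with all of them higher (0.40, SE 0.08, adjusted p = 0.14), against 2.63% of all genes. Without late regressed array 1 CENPJ was called by limma (adjusted p = 0.00445). In that fit the calls over all 52707 probe sets went from 1 to 924. The median difference was -0.11 for the 73 genes and 0.00 for all genes. The differences of TOP2A (-0.77, SE 0.46), NCAPG (-0.56, SE 0.31), MKI67 (-0.55, SE 0.25) and CCNB2 (-0.49, SE 0.35) did not pass.

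Late functional against mid-late glands compares stages before serum progesterone is lost. Of the 73 genes, AURKB and CDCA2 fell, 0 rose and 71 did not pass, against 0.594% of all genes lower and 0.58% higher. AURKB averaged 6.79 ± 0.09 in late functional and 7.35 ± 0.07 in mid-late glands (-0.56, SE 0.10, adjusted p = 0.0399). The dimmer AURKB probe set was not called by limma (-0.12, adjusted p = 0.624). CDCA2 averaged 3.79 ± 0.14 in late functional and 4.40 ± 0.14 in mid-late glands (-0.61, SE 0.09, adjusted p = 0.0289). All late functional arrays lay below all mid-late arrays for 10 genes, against 8.5% of all genes, and 7 of these had at least a 1.5-fold difference, against 0.835%. They lay wholly higher for 0 of the 73 genes, against 10.4% of all genes and 2.12% with at least a 1.5-fold difference. The 7 genes were CDCA2, TOP2A (-1.47, adjusted p = 0.132), CCNB1 (-1.08, adjusted p = 0.122), CCNB2 (-1.0, adjusted p = 0.167), CENPF (-0.78, adjusted p = 0.0857), CDK1 (-0.73, adjusted p = 0.185) and MKI67 (-0.72, adjusted p = 0.16). The median difference was -0.11 for the 73 genes and -0.01 for all genes. AURKB was called in 4 and CDCA2 in 6 of the 12 fits without 1 array. All 4 AURKB calls came from fits without a late regressed array, a group outside this comparison. CDCA2 was also called without mid-late array 4 and without late functional array 4. Neither was called without mid-late array 1, 2 or 3, nor without late functional array 1, 2 or 3. In these fits the 470 calls over all probe sets became 16, 19 and 74, and 22, 4 and 10, in that order. The mid-late arrays serve both this comparison and the first, so the shared falls of AURKB and CDCA2 are not independent.

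The group means of 40 of the 73 genes (54.8%) ran late regressed lowest, then late functional, then mid-late, against 25.8% of all genes. With array 4 of both late groups left out, an alternative added after the data were seen, the shares were 42.5% and 25.6%.

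Array 4 set much of the spread in the late functional group. It was the lowest of its group for 54 of the 73 genes (74.0%), against 34.7% of all genes. On late functional array 4, 49 of the 73 genes lay below all mid-late arrays, against 20 to 28 on arrays 1 to 3. On late regressed array 4 it was 53, against 34 to 39 on arrays 1 to 3. Over all genes these shares ran from 22.1% to 39.6% on the 8 late arrays and were 30.3% on late regressed array 4 and 31.6% on late functional array 4. Cell type markers moved on this array too. Against mid-late, late functional array 4 was the lowest of its group for T and NK cell markers (-0.24, with 0.18 to 0.23 on arrays 1 to 3), red blood cell markers (-0.70, with -0.24 to -0.17), granulosa markers (-0.49, with -0.23 to 0.06), pericyte and smooth muscle markers (-0.20, with -0.02 to 0.35), steroidogenic markers (-0.40, with -0.27 to -0.08) and B cell markers (-0.24, with -0.16 to 0.02). Macrophage markers (1.10) and fibroblast markers (0.07) lay within the range of arrays 1 to 3, and endothelial markers (0.20) lay above it. On late regressed array 4 the red blood cell (-1.06), pericyte (-0.34) and macrophage (0.25) markers were the lowest of their group. The part of these shifts in the low values of array 4 was not tested. The mean 3′ to 5′ difference of late functional array 4 was 0.61, within the 0.53 to 0.61 of the group. Its 2 controls diverged. Actin stood at 0.64, against 0.32 to 0.42 on arrays 1 to 3, and GAPDH at 0.59, against 0.65 to 0.91. Without late regressed array 4 and late functional array 4, 18 members were called between late regressed and mid-late glands and 14 of these were among the 18 called with all arrays. Over all probe sets the 5282 calls became 5843 in that fit. CDK1 (-0.66, adjusted p = 0.0177) and TYMS (-0.93, adjusted p = 0.0131) then passed. The members' median went to -0.13 in that comparison and to -0.06 between late functional and mid-late glands. There 0 members and 128 of 52707 probe sets were called by limma.

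**Figure D4:**
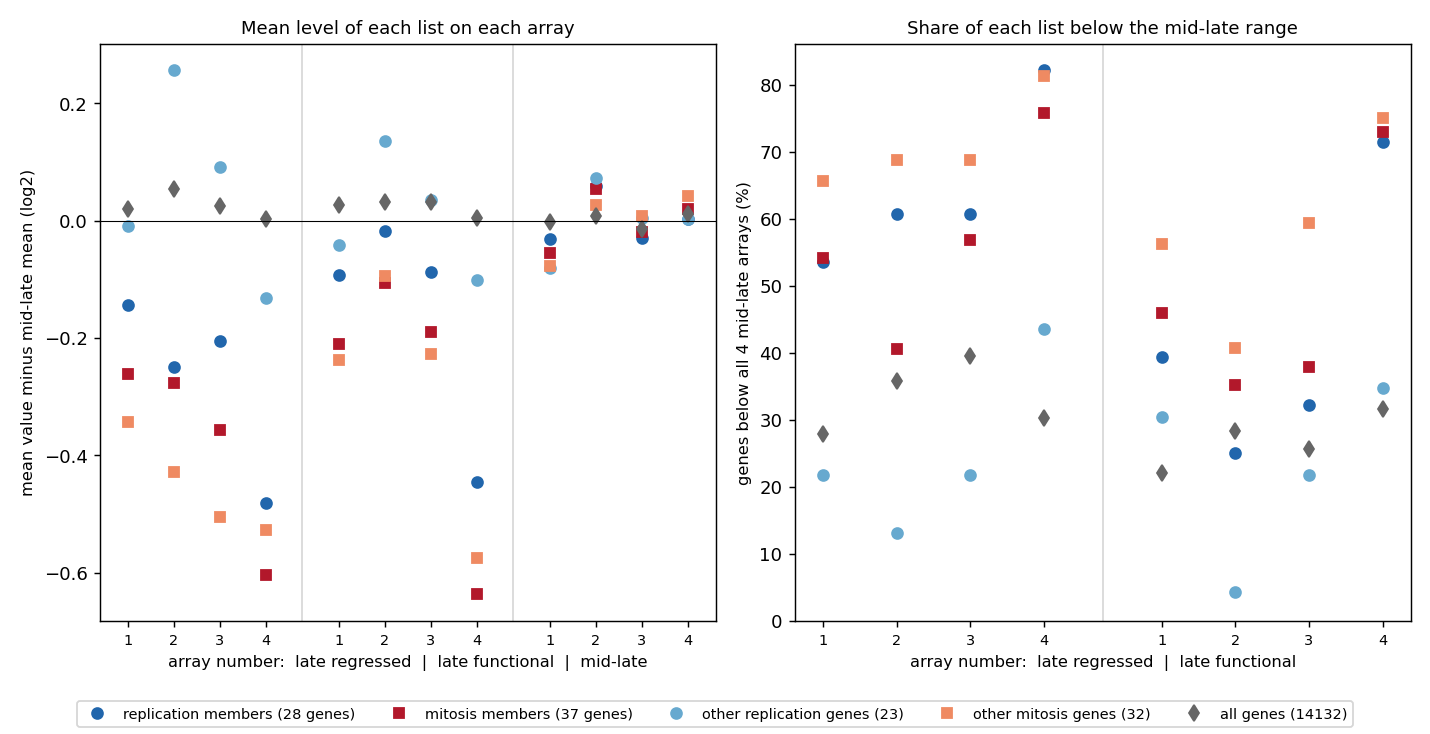
Mean log2 level of each list relative to its mid-late mean (left, all arrays) and the share of its genes below all 4 mid-late arrays (right, late arrays). Array 4 is the lowest of its group for both member lists in both late groups, while the other replication genes run from -0.13 to 0.26 on late regressed arrays.

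Other genes of the cycle were taken from lists. Of 32 measured mitosis genes outside the set (48 listed), 13 fell (40.6%) and 2 rose between late regressed and mid-late glands, against 5.51% and 7.6% of all genes, with a median difference of -0.38. KIF2C, a kinesin that trims microtubules at centromeres, averaged 4.89 ± 0.27 in late regressed and 6.09 ± 0.19 in mid-late glands and fell 2.3-fold (adjusted p = 0.00839). TPX2, an activator of Aurora A, fell by 0.85 (adjusted p = 0.00703), and FOXM1, the transcription factor that turns on many genes of late cycle, fell by 0.83 (adjusted p = 0.0113). CKAP2 (-1.31), ANLN (-1.18), which acts at the cleavage furrow, and the kinetochore gene ZWINT (-1.09) fell too. The genes that rose were PBK (0.53, under the NC limit) and KIF20B (0.42).

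Of 23 measured replication genes outside the set (32 listed), 0 fell and 2 rose by limma. The 2 are 8.7% of the list, close to the 7.6% of all genes called higher. They were POLD3, a subunit of polymerase delta (0.67, adjusted p = 0.00839), and RPA2, which binds single-stranded DNA (0.45, adjusted p = 0.035). POLD3 read 7.01, 7.19, 7.17 and 7.16 in late regressed glands, 6.55, 7.04, 6.86 and 7.03 in late functional glands, and 6.33, 6.50, 6.44 and 6.57 in mid-late glands. All late regressed arrays lay above all mid-late arrays. The median difference of this list was 0.04 and lay between -0.10 and 0.10 over the alternatives.

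Upstream of S phase, 2 of 10 measured G1 genes fell, against 5.51% of all genes. E2F1, the transcription factor that switches on replication genes, read 6.55, 6.48, 6.44 and 6.60 in late regressed glands, 6.63, 6.71, 6.71 and 6.68 in late functional glands, and 7.10, 6.99, 7.02 and 7.01 in mid-late glands. Both late groups lay wholly below mid-late, and E2F1 fell in late regressed (-0.51, adjusted p = 0.00548) and in late functional glands (-0.35, adjusted p = 0.0363). CCND1, the cyclin of growth signals, fell by 1.04 in late regressed against mid-late glands (adjusted p = 0.0376). Of 21 measured brake and quiescence genes, 2 rose (9.52%) and 1 fell (4.76%), close to the 7.6% and 5.51% of all genes. The called genes were GADD45B (1.09, adjusted p = 0.0199) and CCNG2 (1.16, adjusted p = 0.0298), both linked to growth arrest, and CDKN3 (-1.23, adjusted p = 0.0226), a phosphatase of cyclin-dependent kinases.

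Markers of the cell types in the gland moved as well. Against the mid-late mean, the mean of 8 steroidogenic luteal markers ran from -1.94 to -0.50 in late regressed, -0.40 to -0.08 in late functional and -0.15 to 0.13 in mid-late arrays, and 2 of the 8 fell in late regressed glands. Another 2 lay above 0 without a call by limma, CYP17A1 highest (0.61, adjusted p = 0.0515). The mean of 11 macrophage markers ran from 0.25 to 1.68, 1.07 to 1.14 and -0.81 to 0.92 in these groups, with 0 called by limma. Between late regressed and mid-late glands C1QA (-0.68), C1QC (-0.52) and C1QB (-0.08) lay below 0 and the other 8 above. For 11 endothelial markers the ranges were 0.03 to 0.33, 0.06 to 0.20 and -0.07 to 0.07. Of the 11, 4 rose in late regressed glands (CLDN5, ERG, TEK and SOX17), where 7.6% of all genes did. KDR (-0.83), EMCN (-0.41) and ROBO4 (-0.18) lay below mid-late without a call, and PECAM1 (0.19) and VWF (0.04) differed little. In the fibroblast list 4 of 8 rose (DCN, DPT, COL14A1 and FBLN1), with ranges from 0.16 to 0.48, -0.06 to 0.30 and -0.45 to 0.44. The other 4 lay below 0 without a call: LUM (-0.79), COL1A1 (-0.76), COL3A1 (-0.465) and COL1A2 (-0.18). Between late regressed and mid-late glands 7.6% of all genes were called higher and 5.51% lower. Pericyte and smooth muscle markers ran from -0.34 to 0.33, -0.20 to 0.35 and -0.16 to 0.33, with 1 of 5 lower. No member of the T and NK cell (5 measured), B cell (4 measured, 1 above the NC limit), granulosa (4) or red blood cell (2) lists was called. The part of these shifts in the cell cycle results was not tested.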

How the data were processed

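Total RNA of 12 rhesus macaque corpora lutea, 4 in each of the groups late regressed, late functional and mid-late, was labelled and hybridised to 1 Affymetrix array each, per the labels' protocols. The deposited table holds log2 values, made by the authors with RMA per the submitters' processing notes. The RMA version, scan dates and batches: not given in the sources used here. Of 52865 probe sets, 158 array controls were left out. In the platform annotation 24956 of the tested probe sets had 1 symbol, 361 several and 27390 none. A RefSeq gene table matched 24616 of them by Entrez ID, and 0 symbols changed.

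limma 3.58.1 in R 4.3.3 (lmFit, eBayes) fitted all 12 arrays with group means and no covariate. Each gene was read from its brightest probe set, and 41 members have 1 probe set. Named genes were the members called in any comparison or by the F test, TOP2A, MKI67, TYMS and PCNA, the 2 brightest members of each role, members with non-overlapping late regressed and mid-late arrays at a fold of at least 1.5, and up to 6 called genes per pathway list. MCM3, MCM4, MCM5, CENPA, AURKA, CCNA2, CDK2, NCAPD3, NCAPG2, PBK and KIF20B were named after their values were seen. Members and lists were chosen with earlier results of these data known. The fit was tested on simulated data. The alternatives left out dim probe sets, changed the scaling, prior, groups, covariates or probe set rule, or left out arrays. The number of arrays limits the precision.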

Additional observations from a re-analysis of the deposited data

Results flagged for a closer look

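In 10 of 93 gene and group sets of 4 arrays, the lowest or highest array stood far from the other 3 by Dixon's ratio at its 95% level; chance flags about 1 in 20 groups. Late functional array 4 accounts for 7 of them: it read 4.38 for CCNB1 (others 5.97 to 6.06), 4.17 for CCNB2 (others 5.72 to 6.0), 5.47 for TYMS (others 7.31 to 7.66), 4.41 for CDC45 (others 4.92 to 4.98), 5.35 for CDCA8 (others 5.70 to 5.71), 7.59 for AURKAIP1 (others 8.19 to 8.24) and, as the highest, 11.03 for BUB3 (others 9.98 to 10.08). Late regressed array 4 read 3.77 for NCAPG, against 4.51 to 4.58 on the others. GINS1, a helicase cofactor, read 7.60 on late regressed array 3 (others 8.17 to 8.21) and 7.99 on mid-late array 1 (others 8.34 to 8.38). Those 7 values come from 1 gland and are not independent of each other.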

How the results depend on the processing

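The members' median difference was below 0 under every alternative run, from -0.32 to -0.13 for late regressed against mid-late, -0.15 to -0.03 for late regressed against late functional and -0.21 to -0.06 for late functional against mid-late, and no called member changed sign. For late regressed against mid-late, the 18 calls became 11 with array weights, 3 when late regressed arrays 2 and 3 were dropped and 0 with the NC covariate, and ran from 7 to 23 without single arrays. Over all probe sets the 5282 calls became 2839, 975 and 0 in the first 3 of these fits. For late regressed against late functional, 0 became 1 without late regressed array 1, the highest of the range from 0 to 1. Over all probe sets the 1 call of this comparison became 924 in that fit. For late functional against mid-late, the 2 calls became 0 with either filter on dim probe sets, with the NC mean as a covariate, with the replicate block and without array 4 of both late groups, 1 after median centring, with a trended robust prior and with the mean over probe sets, and 5 with only these groups fitted or with array weights, and ran from 0 to 2 without single arrays. Over all probe sets the 470 calls of this comparison became 107 and 72 with the filters, 0 with the NC covariate and 4 with the block. They became 128 without array 4 of both late groups, 345 after median centring and 369 with the trended robust prior. With the mean over probe sets they became 456, with only these groups 2682 and with array weights 3106. The 8 calls of the F test became 5 after median centring and with the 3′ to 5′ covariate, 4 with the replicate block, 2 when late regressed arrays 2 and 3 were dropped, 0 with the NC covariate and 13 without array 4 of both late groups, and ran from 1 to 17 without single arrays. Its 2587 calls over all probe sets became 2417, 2689, 1545, 1742, 0 and 2980 in those fits, in that order. The 4 replication genes that fell became 1 after median centring, with the 3′ to 5′ covariate and only 2 groups in the fit, 0 without late regressed arrays 2 and 3, with array weights and with the NC covariate, and ran from 0 to 6 without single arrays. The 11 mitosis genes became 3 when late regressed arrays 2 and 3 were dropped and 0 with the NC covariate, and ran from 6 to 13. Over all probe sets the 2428 lower calls became 1590 after median centring, 2035 with the 3′ to 5′ covariate and 672 with only 2 groups. They became 332 without late regressed arrays 2 and 3, 1181 with array weights and 0 with the NC covariate. The labels do not say that replicate numbers pair the arrays. Correlations of deviations between same-numbered arrays ran from -0.12 to 0.17 for late regressed against mid-late, where 1 of 4 arrays correlated best with its own number, and from -0.10 to 0.06 for late functional against mid-late, where 0 of 4 did. For late regressed against late functional all 4 were above 0, from 0.02 to 0.30, and 3 of 4 arrays, array 4 among them, correlated best with their own number; not every pair passed 0.1, so this is a hint from the data and not a pairing. With the number as a block, 18, 0 and 2 calls became 18, 0 and 0, and over all probe sets 5282, 1 and 470 became 4349, 0 and 4. The cause was not tested. For the 24 members at or below the NC limit, the signal over background limits what could be detected.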
